A study of Gallus gallus with 4 samples.

Results

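The TIMM and TOMM genes encode the machines that bring proteins into mitochondria. The members were all genes of the deposited tables whose symbol starts with SLC25A, UCP, TIMM or TOMM followed by a digit, with a position on a placed chromosome and a mean of at least 1 FPKM over the 4 libraries. FPKM counts sequenced fragments relative to the length of the transcript and to the mapped reads of the library, so that levels of genes of different length can be compared. Of 17934 gene IDs, 12 had such a symbol and 11 met the rule, namely 6 TIMM and 5 TOMM genes. The gene left out was TOMM40L, which lies on unplaced sequence and was listed at 0 in all 4 libraries. No symbol matched SLC25A or UCP, so the carriers of the inner membrane are not analysed here as members, and the description below covers protein import only. All 11 members had values above 0 in every library and passed the filter on low values.

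Breast muscle RNA of chickens was sequenced in 4 libraries. XHl and XHh were low and high body weight birds of the slow-growing Xinghua breed (strain label Xing Hua Chicken), and WRRl and WRRh were low and high body weight birds of the fast-growing Recessive White Rock. Each library was 1 pool of RNA from 3 female birds at 7 weeks of age. The labels give mean body weights of 207.6 ± 11.1 g for XHl, 305.8 ± 23.3 g for XHh, 695.0 ± 24.4 g for WRRl and 1064.0 ± 11.1 g for WRRh, without stating the kind of error. The labels name no transgene or drug, and all 4 groups had the same feed. The heavy Xinghua pool weighed less than the light White Rock pool, and each breed came from its own supplier, so breed, supplier and body weight cannot be told apart between the breeds. Pooling leaves no replicate of a group, so the tests took the 2 weight classes of a breed as its replicates. Breed and weight class were both in the model, so the p-values rest on each gene's departure from additive effects of the 2 factors. That spread was moderated with the variances of other genes. It does not measure the variation between birds of a group.

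Most mitochondrial proteins are made in the cytosol and carry signals that are read at the mitochondrial surface. The TOM complex of the outer membrane recognises and passes nearly all of them. Proteins with a cleavable presequence then cross the inner membrane through the TIM23 complex, pulled by a motor in the matrix, while carrier proteins are escorted by small TIM chaperones through the space between the membranes and are inserted by the TIM22 complex.

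The libraries expressed markers of skeletal muscle. TNNI2 had 8535 to 10560 FPKM, TNNT3 7304 to 9164 FPKM and DES 906 to 993 FPKM, and all 6 of the 12 listed skeletal muscle markers that matched a symbol were above 0 in every library, TTN at 0.073 to 0.25 FPKM. The 6 matched slow and cardiac muscle markers summed to 4939 and 7413 FPKM in XHl and XHh, against 8146 and 8228 FPKM in WRRl and WRRh, nearly all from TNNC1, and MYBPC1 was at 0 in WRRh. The 5 tested genes of that list were split. MYL2 and MYBPC1 were higher in both Xinghua pools than in both White Rock pools, and TNNI1, TNNT2 and TNNC1 were lower. MYL2, the only one to pass, had 30.7 and 31.8 FPKM in XHl and XHh, against 6.12 and 4.88 FPKM in WRRl and WRRh (adjusted p = 0.0467, limma). TNNI1 had 0.93 and 1.43 FPKM in XHl and XHh, against 9.66 and 3.16 FPKM in WRRl and WRRh. Markers of some other cell types also differed between the breeds. The summed level of the 7 matched macrophage markers was 147 and 104 FPKM in XHl and XHh, against 574 and 241 FPKM in WRRl and WRRh, with 4 of the 7 lower in Xinghua at an adjusted p under 0.05 (limma). The 5 fibroblast markers summed to 928 and 1151 FPKM in XHl and XHh, against 2277 and 1873 FPKM in WRRl and WRRh, with 2 of the 5 lower. The 6 T cell markers summed to 24.1 and 15.7 FPKM in XHl and XHh, against 120.5 and 64.8 FPKM in WRRl and WRRh, with 2 of the 6 lower. The endothelial markers (93.4 and 86.5 FPKM in XHl and XHh, against 90.5 and 106.7 FPKM in WRRl and WRRh) and the adipocyte markers (81.2 and 85.5 FPKM in XHl and XHh, against 86.5 and 98.5 FPKM in WRRl and WRRh) had closer sums. Of the 3 adipocyte markers, PLIN1 was lower in Xinghua (log2 difference -2.82, adjusted p = 0.0418, limma), and the other estimates were positive. CD36 had 17.7 and 15.6 FPKM in XHl and XHh, against 14.9 and 13.7 FPKM in WRRl and WRRh. The 4 matched erythroid markers summed to 134.8 and 88.2 FPKM in XHl and XHh, against 148.8 and 195.6 FPKM in WRRl and WRRh, with 1 (TAL1) lower. The 3 tested erythroid markers were split, 2 with negative estimates and 1, SPTB, with a positive one. SPTB had 48.8 and 40.9 FPKM in XHl and XHh, against 30.7 and 29.2 FPKM in WRRl and WRRh. In pooled tissue, fewer cells of a type and less RNA per cell cannot be told apart, and the part of these cell types in the differences below was not tested.

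The levels of the members ran from 10.6 FPKM (TOMM34 in XHh) to 1018 FPKM (TOMM7 in WRRh), and their order was largely kept between libraries. TOMM7, a small subunit that tunes the assembly of the TOM complex, ranked first in all 4 libraries with 540.2 to 1018 FPKM. TOMM20, the receptor for presequences, ranked next with 186 to 222 FPKM, and TOMM22, the central receptor of the complex, followed with 52.9 to 66.4 FPKM. The ranges of these 3 genes did not overlap one another or that of any other member. TIMM21, TIMM17A, TIMM10 and TIMM8A lay between 28.9 and 47.5 FPKM, and their ranges overlapped. In every library TIMM21 was above TIMM17A and TIMM17A above TIMM8A, while the place of TIMM10 among them changed. The range of TIMM22, from 17.7 to 29.4 FPKM, overlapped those of TIMM10, TOMM70A and TIMM44. TIMM44, at 15.6 to 18.5 FPKM, and TOMM34, at 10.6 to 15.9 FPKM, held the 2 lowest ranks in every library. The members together summed to 1141 and 991 FPKM in XHl and XHh, against 1433 and 1510.1 FPKM in WRRl and WRRh. TOMM7 alone made up 55.4% and 54.5% of that sum in XHl and XHh, against 64.1% and 67.4% in WRRl and WRRh. Without it, the other 10 members summed to 509 and 451 FPKM in XHl and XHh, against 514 and 492 FPKM in WRRl and WRRh. At the deposited scaling of the libraries, the difference between the breeds in the sum thus lay mainly in TOMM7. These sums depend on the scaling. The median log2 difference of the 10, Xinghua minus White Rock, was -0.087 at the deposited scaling and 0.19 with median-of-ratios factors.

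**Figure D1:**
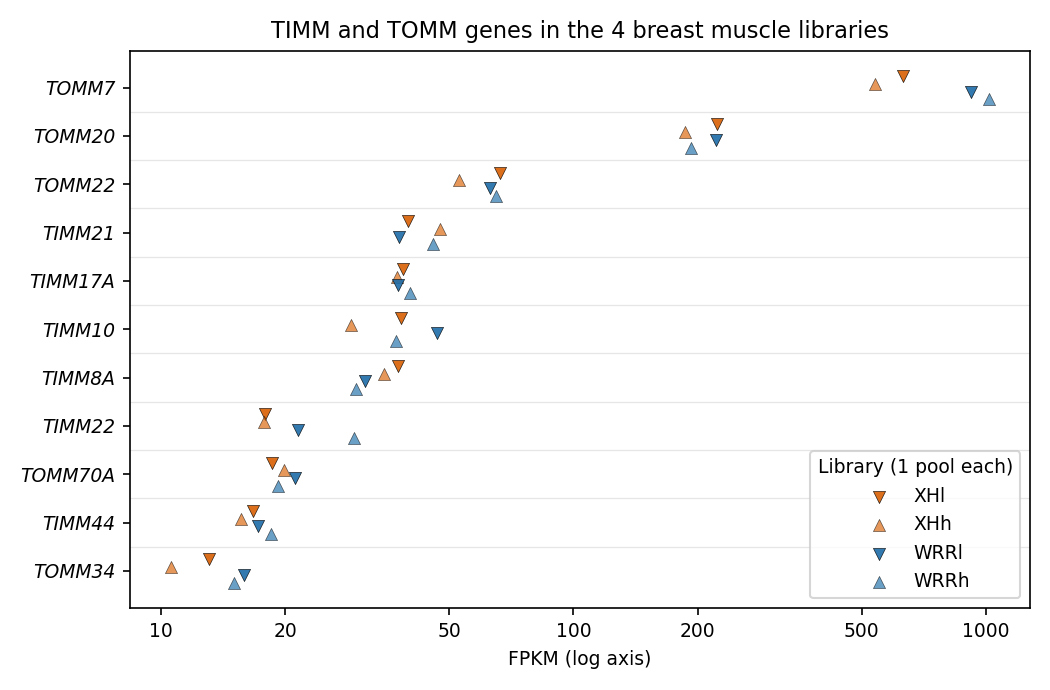
FPKM (log axis) of the 11 TIMM and TOMM genes in each library, 1 point per library, with Xinghua pools in orange, White Rock pools in blue, and triangles pointing down for low and up for high body weight. TOMM7 sits apart between 540.2 and 1018 FPKM, with both Xinghua points left of both White Rock points, while most other genes hold their 4 points close together.

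The first comparison asked which import genes differed between the slow-growing and the fast-growing breed. No member passed the threshold of an adjusted p under 0.05 in limma, a linear model with moderated variances, fitted on log2(FPKM + 1) of 10669 genes with breed and weight class as terms. In that fit 4.75% of all genes tested passed, 130 higher and 377 lower in Xinghua, and with median-of-ratios scaling 213 were higher and 122 lower. Before adjustment, 2 of the 11 members (TOMM7 and TIMM22) and 3658 of the 10669 genes had a p under 0.05. The estimate was negative for 9 members and positive for 2, with a median of -0.11 on the log2 scale, and the median over all genes tested was -0.24. Since the whole distribution was shifted, each value has to be read beside that median. With median-of-ratios scaling, which brought the median of all genes to -0.001, the median of the members was 0.17, with 7 positive and 4 negative. The 2 pairs of pools of like weight class were not alike at the deposited scaling. Between XHl and WRRl, 5 members were higher and 6 lower, with a median log2 ratio of -0.039 (-0.23 over all genes). Between XHh and WRRh, 3 were higher and 8 lower, with a median of -0.23 (-0.25 over all genes).

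TOMM7 had the largest difference in size at the deposited scaling. Relative to the median of all genes, TIMM8A was about as far out on the other side (0.49, against -0.48 for TOMM7). With median-of-ratios scaling TIMM8A was further out (0.51, against -0.44 for TOMM7). TOMM7 is encoded by ENSGALG00000010917 on chromosome 2 (30904846 to 30908264 in the positions of the tables, whose build was not established). TOMM7 had 632 and 540.2 FPKM in XHl and XHh, against 919 and 1018 FPKM in WRRl and WRRh. Both Xinghua pools were below both White Rock pools. TOMM7 was 0.605 times as high in Xinghua, a log2 difference of -0.73 ± 0.13 (SE; 95% interval -1.08 to -0.37, adjusted p = 0.0571, limma), which is -0.48 relative to the median of all genes. The gene passed the threshold under 3 of the 13 alternative settings. In those 3 settings 1007 of 7507, 1807 of 10356 and 766 of 10669 genes passed, against 507 of 10669 in the main fit. The adjusted p of TOMM7 ranged from 0.0285 to 0.137 (limma) over the alternatives that kept all 4 libraries. Leaving out a library gave log2 differences of -0.84 to -0.61. With median-of-ratios scaling the difference was -0.44 (adjusted p = 0.107, limma). In each pair of pools of like weight class TOMM7 was lower in Xinghua, by a log2 ratio of -0.54 for XHl over WRRl and -0.91 for XHh over WRRh.

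Like TOMM7 itself, the receptors that act with TOMM7 at the mitochondrial surface did not pass the test in either direction. TOMM20 (ENSGALG00000013921, chromosome 3, 39813662 to 39820715) had 222 and 186 FPKM in XHl and XHh, against 222 and 193 FPKM in WRRl and WRRh. Its log2 difference was -0.026 (95% interval -0.31 to 0.26), and the breeds overlapped. The tables give this locus to the small nucleolar RNA SNORA14 as well, and the authors' status column marks TOMM20, alone among the members, as LOWDATA in the 2 tables that hold XHl. TOMM22 (ENSGALG00000019316, chromosome 1, 52779374 to 52781091) had 66.4 and 52.9 FPKM in XHl and XHh, against 62.8 and 64.9 FPKM in WRRl and WRRh. TOMM22 also overlapped between the breeds, at -0.11 (95% interval -0.53 to 0.31).

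TOMM70A (ENSGALG00000015285, chromosome 1, 88206851 to 88228096) encodes the receptor that takes carrier precursors from cytosolic chaperones. TOMM70A had 18.5 and 19.8 FPKM in XHl and XHh, against 21.1 and 19.2 FPKM in WRRl and WRRh, with a log2 difference of -0.067 (95% interval -0.44 to 0.31). For TOMM20, TOMM22 and TOMM70A the sign depended on the scaling, since with median-of-ratios factors they stood at 0.25, 0.17 and 0.20. TOMM34 (ENSGALG00000004110, chromosome 20, 5188867 to 5192417), known in human cells as a co-chaperone of cytosolic HSP70 and HSP90 that works before import, had 13.1 and 10.6 FPKM in XHl and XHh, against 15.9 and 15.0 FPKM in WRRl and WRRh. Both Xinghua values of TOMM34 were the lower ones, with a log2 difference of -0.37 (95% interval -0.75 to 0.016, adjusted p = 0.155, limma).

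Within a library the ratio of 2 genes does not depend on the scaling of that library. TOMM7 had 2.84 and 2.90 times the FPKM of TOMM20 in XHl and XHh, against 4.13 and 5.27 times in WRRl and WRRh. TOMM7 over TOMM22 was 9.51 and 10.2 in XHl and XHh, against 14.6 and 15.7 in WRRl and WRRh. Both Xinghua ratios were thus below both White Rock ratios. The ratio of the 2 receptors to each other, TOMM20 over TOMM22, was 3.35 and 3.52 in XHl and XHh, against 3.54 and 2.98 in WRRl and WRRh, which overlapped. These ratios are given as a description without a test.

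Of the presequence translocase of the inner membrane, 3 members were measured, and none passed the test between the breeds. TIMM21 (ENSGALG00000013709, chromosome 2, 94337563 to 94342678), the subunit that docks the TIM23 complex to the TOM complex, had 39.6 and 47.5 FPKM in XHl and XHh, against 37.7 and 45.6 FPKM in WRRl and WRRh. Its log2 difference was 0.064 (95% interval -0.27 to 0.40), and 0.34 with median-of-ratios factors (adjusted p = 0.152, limma). TIMM17A (ENSGALG00000000086, chromosome 26, 1024604 to 1132595), a subunit of the channel, had 38.6 and 37.4 FPKM in XHl and XHh, against 37.5 and 40.0 FPKM in WRRl and WRRh. The highest TIMM17A value was 1.07 times the lowest, the smallest spread among the 11 members, and the log2 difference was -0.028 (95% interval -0.38 to 0.32). The tables place 8 other gene models in the 107992 bp locus of TIMM17A, ADIPOR1 among them, and the RefSeq table (GRCg7b) lists TIMM17A as a synonym of TIMM17B, so the identity of this value is uncertain. TIMM44 (ENSGALG00000000352, chromosome 28, 465876 to 486322), which anchors the motor chaperone at the channel exit, had 16.7 and 15.6 FPKM in XHl and XHh, against 17.2 and 18.5 FPKM in WRRl and WRRh. Both Xinghua pools of TIMM44 were below both White Rock pools, by a small margin (log2 difference -0.13, 95% interval -0.51 to 0.24), and TIMM44 and TIMM17A were above 0 with median-of-ratios factors (0.13 and 0.25).

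Within the carrier pathway the spread over the 4 libraries differed by gene. The highest value was 1.66 times the lowest for TIMM22 and 1.62 times for TIMM10, but 1.14 times for TOMM70A. TIMM22 (ENSGALG00000004383, chromosome 19, 6282457 to 6286042), the channel that inserts carriers into the inner membrane, had 17.9 and 17.7 FPKM in XHl and XHh, against 21.4 and 29.4 FPKM in WRRl and WRRh. Both Xinghua pools were below both White Rock pools. TIMM22 was 0.721 times as high in Xinghua, a log2 difference of -0.47 ± 0.17 (SE; 95% interval -0.93 to -0.013, adjusted p = 0.14, limma), with adjusted p from 0.0928 to 0.441 over the alternatives. WRRh stood above the other 3 pools. The difference was -0.25 without WRRh, -0.69 without WRRl and -0.20 with median-of-ratios factors.

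Of the small chaperones of the intermembrane space, TIMM10 (ENSGALG00000004845, chromosome 5, 18192215 to 18192882), which forms a ring with TIMM9, had 38.2 and 28.9 FPKM in XHl and XHh, against 46.8 and 37.0 FPKM in WRRl and WRRh. Its breed difference was -0.32 (95% interval -0.65 to 0.020), with overlapping breeds. TIMM8A (ENSGALG00000004963, chromosome 4, 2020680 to 2021847), whose human gene is mutated in a deafness and dystonia syndrome, ran the other way with 37.6 and 34.7 FPKM in XHl and XHh, against 31.2 and 29.6 FPKM in WRRl and WRRh. TIMM8A was the member with the highest estimate. With median-of-ratios factors 7 members had positive estimates. At the deposited scaling TIMM8A was the only member with both Xinghua pools above both White Rock pools. Its log2 difference was 0.24 (95% interval -0.096 to 0.58, adjusted p = 0.243, limma), and 0.51 with median-of-ratios factors (adjusted p = 0.0869, limma). The ratio of TIMM10 to TIMM8A was 1.02 and 0.834 in XHl and XHh, against 1.50 and 1.25 in WRRl and WRRh. That ratio was not tested. Since the 2 genes had breed estimates of opposite sign, a gap between the breeds was built into this pair.

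The partner of TIMM10 in the ring was not a member, because the tables list it under the protein name TIM9_CHICK (ENSGALG00000012026, chromosome 5), which the RefSeq table gives as TIM9, a synonym of TIMM9. TIM9_CHICK had 27.5 and 21.4 FPKM in XHl and XHh, against 23.4 and 19.4 FPKM in WRRl and WRRh. TIMM10 over TIM9_CHICK was 1.39 and 1.35 in XHl and XHh, against 2.00 and 1.91 in WRRl and WRRh, so that the 2 partners were closer to equal FPKM in the Xinghua pools. That ratio was not tested, and TIM9_CHICK was chosen after its values were seen. The breed difference of TIM9_CHICK was 0.18 (SE 0.12, adjusted p = 0.353, limma).

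**Figure D2:**
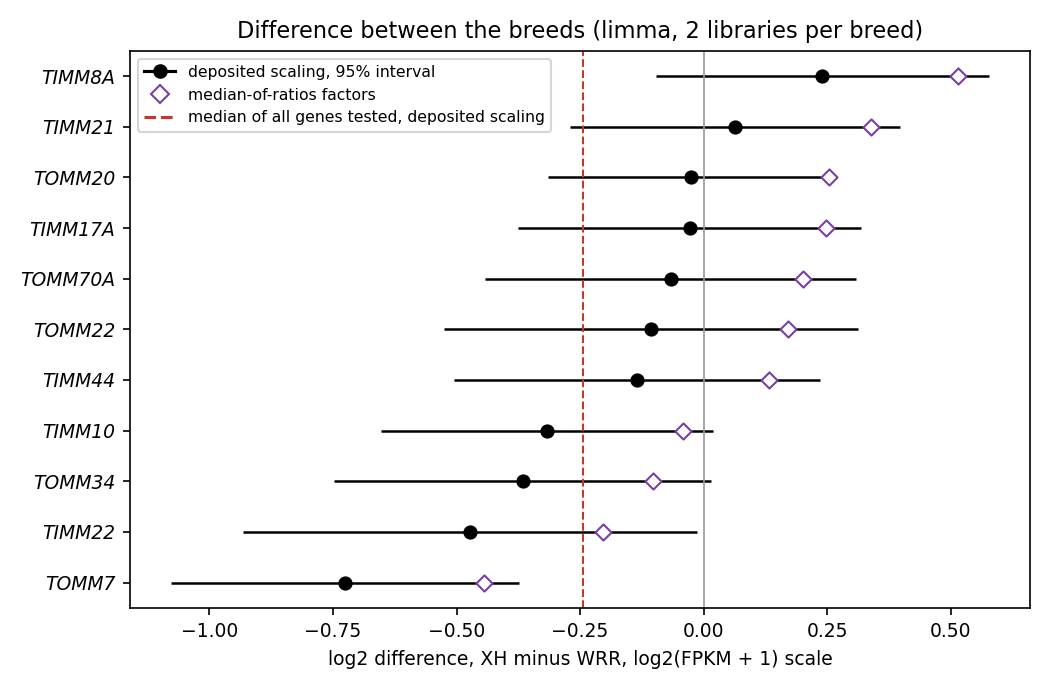
Log2 difference of each TIMM and TOMM gene, Xinghua minus White Rock (x axis, log2(FPKM + 1) scale), from 2 libraries per breed, with black points and 95% intervals from limma at the deposited scaling and open diamonds for median-of-ratios factors. The dashed line marks the median of all genes at -0.24. The intervals of TOMM7 (-1.08 to -0.37) and TIMM22 (-0.93 to -0.013) are the ones that leave out 0. Those of TOMM7 and TIMM8A (-0.096 to 0.58) are the ones that leave out the dashed line, which the interval of TIMM22 includes.

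By overlap at the deposited scaling, 4 of the 11 members (TOMM7, TIMM22, TOMM34 and TIMM44) had both Xinghua pools below both White Rock pools. That is 36.4% of them, beside 51.8% of all genes tested. One member, TIMM8A, had both above (9.09% of the members), beside 15% of all genes tested. The remaining 6 overlapped. Neither share of the members exceeded the share of all genes. These shares depend on the scaling and were not counted with median-of-ratios factors. With those factors 4 estimates of members were negative and 7 positive, and that of TIMM44 was 0.13. No member was at least 2-fold apart between XHl and WRRl, where 13.9% of the genes above 0 in both were, nor between XHh and WRRh, where 9.22% were. The spread of the members across the 4 libraries was close to that of genes of like level. The highest value of a member was 1.07 to 1.88 times its lowest, with a median of 1.26, and 7 of the 11 (63.6%) stayed under 1.5 times. Among the 10356 genes tested that were above 0 in every library, the median was 1.59 and 43% stayed under 1.5 times, and among the 5261 of these averaging 10 FPKM or more, as all members did, the median was 1.42 and 58.5% stayed under that limit.

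The other comparison asked which import genes differed between low and high body weight within the breeds. No member passed in limma (6 of 10669 genes did, 0.0562%), and 1 member (TIMM10) and 619 of all genes had an unadjusted p under 0.05. The median of the members was 0.039, beside 0.055 for all genes tested, and its sign was not kept (-0.0081 with median-of-ratios factors, -0.052 to 0.14 when a library was left out). The 5 TOMM genes had positive estimates with a median of 0.14. Of the 6 TIMM genes 2 were positive, with a median of -0.013, and of the 10669 genes tested 6465 were positive. The estimates of TOMM7 (0.039) and TOMM70A (0.021) were small, and TOMM7, TOMM22 and TOMM70A had ratios of opposite sign in the 2 breeds. The difference between the TOMM and TIMM genes was not tested.

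TIMM10 and TOMM20 had both low-weight pools above both high-weight pools (18.2% of the members, beside 10.4% of all genes tested). For TIMM10 the low-weight pools XHl and WRRl had 38.2 and 46.8 FPKM, against 28.9 and 37.0 FPKM in the high-weight pools XHh and WRRh, a log2 difference of 0.36 ± 0.12 (SE; 95% interval 0.023 to 0.70, adjusted p = 0.808, limma). TOMM20 had 222 FPKM in each low-weight pool, against 186 and 193 FPKM in the high-weight pools, a difference of 0.23 ± 0.10 (SE; 95% interval -0.060 to 0.52). TIMM21 was the one member with both low-weight pools below both high-weight pools (9.09% of the members, beside 7.48% of all genes tested). Its values were 39.6 and 37.7 FPKM in XHl and WRRl, against 47.5 and 45.6 FPKM in XHh and WRRh, a difference of -0.26 ± 0.12 (SE). These 3 genes were picked because their weight classes did not overlap, which already fixes the same sign in both breeds. The 2 breeds gave ratios of similar size for them. The log2 ratios were 0.39 in Xinghua and 0.33 in White Rock for TIMM10, and 0.26 in Xinghua and 0.20 in White Rock for TOMM20. For TIMM21 they were -0.25 in Xinghua and -0.27 in White Rock. TIMM8A and TOMM34 also had the same sign in both breeds, and the other 6 members had opposite signs at the deposited scaling. The share of all genes with opposite signs was not counted.

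No member was at least 2-fold apart between low and high weight, where 1.24% of all genes were in Xinghua and 4% in White Rock. At the deposited scaling, 9 members were higher and 2 lower between XHl and XHh, with a median log2 ratio of 0.11 (0.055 over all genes). The share of all genes that were higher was not counted. The median-of-ratios factors were 0.924 for XHl and 0.889 for XHh, so dividing by them lowers these ratios. Between WRRl and WRRh, 5 were higher and 6 lower, with a median of -0.046 (0.045 over all genes). The most negative of these ratios was that of TIMM22 in White Rock, at -0.44, and the most positive was that of TIMM10 in Xinghua.

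**Figure D3:**
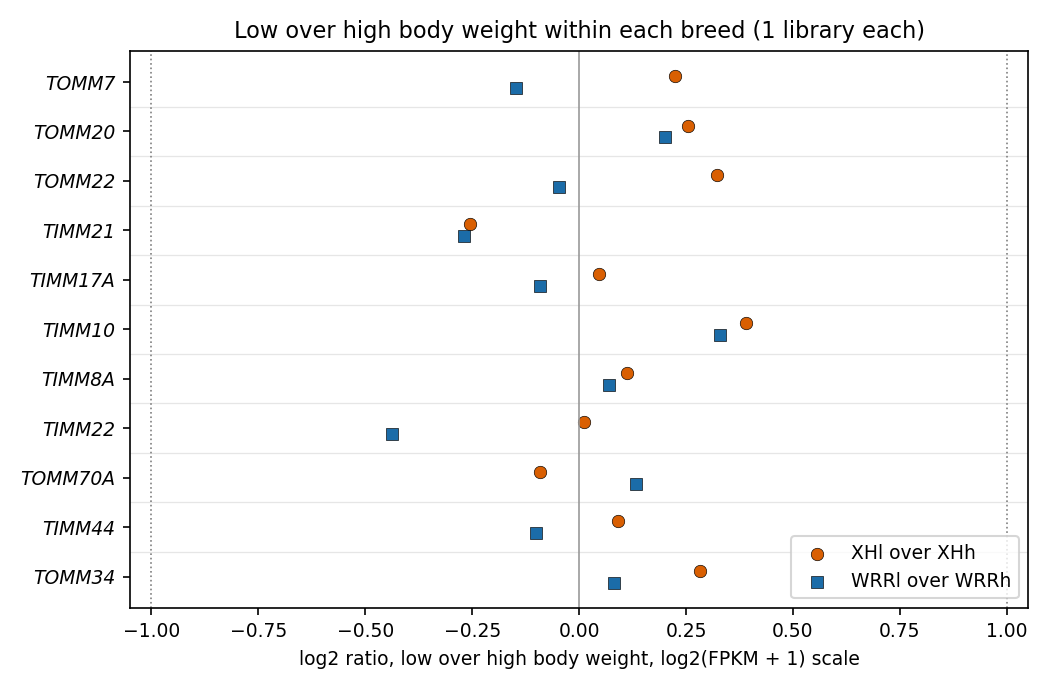
Log2 ratio of low over high body weight (x axis, log2(FPKM + 1) scale) for each TIMM and TOMM gene, with circles for XHl over XHh and squares for WRRl over WRRh, 1 library on each side of a ratio. All points lie inside the dotted lines of a 2-fold ratio, with TIMM10, TOMM20 and TIMM21 at like values in both breeds and TIMM22 at 0.011 in Xinghua and -0.44 in White Rock.

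The other genes of the import pathway were taken from lists of partners, and no gene of these lists passed in limma in either comparison. Of 12 listed partners of the inner membrane gate and motor, 4 matched a symbol. PAM16, whose symbol stands for a regulator of the import motor, was listed at 75.9 FPKM in XHh and at 0 in the other 3 libraries. Its fitted difference, which depends on the pseudocount, is not given. The study describes this PAM16 entry as a coronin, so the identity of the value is uncertain. The other 3 (ROMO1, DNLZ and DNAJC15) had breed differences of -0.42 to -0.12. ROMO1, a small inner membrane protein linked to import, had 260.5 and 339 FPKM in XHl and XHh, against 394 and 403 FPKM in WRRl and WRRh (log2 difference -0.42, adjusted p = 0.112, limma). Of 9 listed partners in the outer membrane and intermembrane space, 5 matched, with a median of -0.015. SAMM50, which builds beta barrels into the outer membrane, had 70.0 and 62.9 FPKM in XHl and XHh, against 50.6 and 66.2 FPKM in WRRl and WRRh, which overlapped.

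Of 16 listed genes for insertion, folding and proteolysis at the inner membrane, 8 matched and 6 were tested, with a median of -0.19, since HTRA2 and OXA1L were listed at 0 in every library. CLPX, the unfoldase of a matrix protease, had 72.5 and 70.3 FPKM in XHl and XHh, against 44.8 and 42.9 FPKM in WRRl and WRRh, a log2 difference of 0.69 ± 0.12 (SE, adjusted p = 0.0571, limma). Of 26 other listed transporters and channels of mitochondrial membranes, 14 matched, with 6 estimates above and 8 below 0 and a median of -0.11. MCU, the pore of the calcium uniporter, had 62.8 and 60.5 FPKM in XHl and XHh, against 41.7 and 43.7 FPKM in WRRl and WRRh, a log2 difference of 0.52 ± 0.12 (SE, adjusted p = 0.0788, limma). The same 2 lists held genes that were lower in both Xinghua pools. OMA1, a stress-activated protease, had 3.3 and 2.45 FPKM in XHl and XHh, against 5.33 and 4.07 FPKM in WRRl and WRRh (log2 difference -0.56, adjusted p = 0.124, limma). SFXN2, a sideroflexin of the inner membrane, had 2.08 and 1.64 FPKM in XHl and XHh, against 4.50 and 3.29 FPKM in WRRl and WRRh (log2 difference -0.77, adjusted p = 0.0901, limma). Of 14 listed regulators of mitochondrial biogenesis, 7 matched, 6 with estimates above 0 and a median of 0.29, and TFAM, the packaging factor of mitochondrial DNA, had 39.0 and 32.4 FPKM in XHl and XHh, against 34.7 and 32.9 FPKM in WRRl and WRRh.

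The import genes were set beside 2 groups of their clients. The median breed difference was -0.11 over the 11 TIMM and TOMM genes, -0.070 over 40 genes of the mitochondrial ribosome and 0.036 over 34 genes of the respiratory chain and ATP synthase. In limma 1 of the 40 ribosomal genes (MRPL41, lower in Xinghua) and 1 of the 34 respiratory chain genes (UQCR11, higher) passed, beside 4.75% of all genes tested. Neither share exceeded that of all genes. These calls were kept under 4 and 6 of the 13 alternatives. The difference between these medians was not tested.

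**Figure D4:**
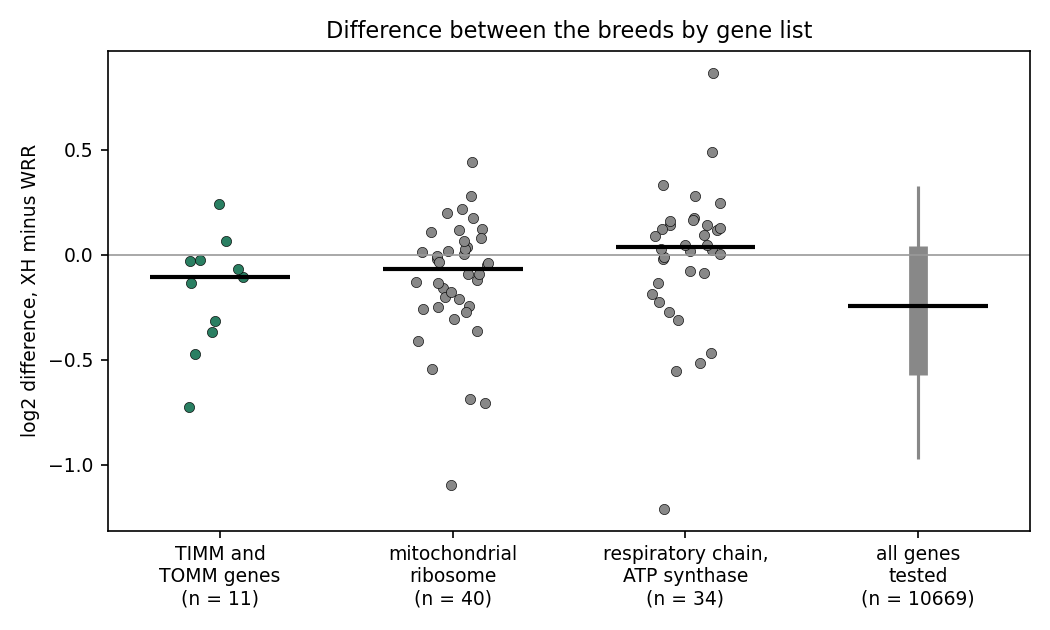
Log2 difference, Xinghua minus White Rock (y axis, log2(FPKM + 1) scale), of each gene in 3 lists, 1 point per gene with black lines at the medians, and for all 10669 genes tested the median, the middle 50% (thick bar) and the 10th to 90th percentile (thin line). The medians are -0.11 for the TIMM and TOMM genes, -0.070 for the mitochondrial ribosome, 0.036 for the respiratory chain and -0.24 for all genes.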

How the data were processed

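Pooled breast muscle RNA was sequenced in 4 libraries on an Illumina HiSeq instrument. The authors cleaned the reads, used TopHat for alignment to Ensembl's chicken genome (at most 2 mismatches, assembly galGal4 in the submitters' processing notes, TopHat version not given in the sources used here) and computed FPKM values per gene with Cuffdiff, deposited as 4 tables of 17934 gene IDs that each compare 1 pair of libraries. Their p-values, q-values and fold changes were not used. The study states the reads of each library, with the most for XHl, but the tables used here give no counts per gene, so the counts behind a single FPKM value, and its precision, are unknown.

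Each library occurs in 2 tables, and the 69 gene-library pairs listed at 0 in 1 table only (0 of them members) took the value above 0. For the tests limma 3.58.1 (R 4.3.3, trend and robust options) was fitted with breed and weight class as terms, which left 1 residual degree of freedom. It used log2(FPKM + 1) of the 10669 genes averaging 1 FPKM or more, and Benjamini-Hochberg adjustment at 0.05. The steps were tested on simulated data. For limma these data had independent noise and no difference between the weight classes. They therefore cannot show whether weight classes serve as replicates or how the scaling acts. Ratios between 2 libraries use the same scale and have no replicate check. Genes at least 2-fold apart are counted among genes above 0 in both libraries. The alternatives were other pseudocounts, filters, scalings and limma options, a model with only the factor tested, and leaving out each library. By the rule for named genes every member could be named. Of other genes, those that were past the threshold or 2-fold apart in both breed contrasts could be named. TIM9_CHICK, ROMO1, SAMM50, CLPX, OMA1, MCU, SFXN2, TFAM, PAM16, DNLZ, DNAJC15, HTRA2, OXA1L, SPTB, CD36 and the muscle markers were chosen after their values were seen. E1C5T1_CHICK, S2536_CHICK and S2546_CHICK were added after the symbols had been searched, with SLC25A33 already known from the study's lists. The members and lists were chosen with earlier results of these data known.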

Additional observations from a re-analysis of the deposited data

Results flagged for a closer look

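In 6 members the ratio of low over high body weight had opposite signs in the 2 breeds at the deposited scaling, with 1 library on each side. The share of all genes with opposite signs was not counted, so this count is not read as a trait of the members. Ratios as small as that of TIMM22 in Xinghua can change sign with the scaling. The log2 ratio of TOMM7 was 0.23 in Xinghua and -0.15 in White Rock, that of TOMM22 was 0.32 in Xinghua and -0.046 in White Rock, and that of TIMM22 was 0.011 in Xinghua and -0.44 in White Rock. TIMM44 stood at 0.091 in Xinghua and -0.10 in White Rock, TIMM17A at 0.046 in Xinghua and -0.091 in White Rock, and TOMM70A at -0.092 in Xinghua and 0.13 in White Rock. The difference between the breeds was not tested, because 4 libraries leave no residual degree of freedom for an interaction.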

How the results depend on the processing

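Over the 13 alternatives TOMM7, TIMM22, TIMM10 and TOMM34 stayed lower and TIMM8A stayed higher in Xinghua, but sizes moved. With median-of-ratios factors TIMM10 was at -0.042, TOMM34 at -0.10 and TIMM22 at -0.20, and leaving out a library gave -0.51 to -0.12 for TIMM10, -0.51 to -0.22 for TOMM34 and -0.69 to -0.25 for TIMM22. The count of members passed by breed was 1 (TOMM7) instead of 0 with a mean of at least 5 FPKM (adjusted p = 0.0394, limma), with genes above 0 in all 4 libraries (0.0285) and with breed alone in the model (0.0464), and 0 without any 1 library. The settings in which TOMM7 passed also passed 1007 of 7507, 1807 of 10356 and 766 of 10669 genes. The median of the members was 0.17 with median-of-ratios factors and -0.18 to -0.089 when a library was left out, and by weight class -0.0081 and -0.052 to 0.14. With median-of-ratios factors TOMM20 (0.25), TOMM22 (0.17), TIMM17A (0.25), TOMM70A (0.20) and TIMM44 (0.13) turned positive, as did TIMM17A (0.087), TOMM70A (0.12) and TIMM44 (0.079) with quantile normalization. Leaving out a library gave -0.15 to 0.10 for TOMM20, -0.27 to 0.055 for TOMM22, -0.071 to 0.20 for TIMM21 and -0.074 to 0.017 for TIMM17A. Genes passed by breed numbered 507, against 9 with a pseudocount of 5, 11 without a filter, 1007 at a mean of at least 5 FPKM, 1807 where every library was above 0, 335 with median-of-ratios factors (213 higher, 122 lower, against 130 and 377), 14 with quantile normalization, 0 without trend and robust options (3472 at an unadjusted p under 0.05), 766 with breed alone, and 9 (without XHl) to 1210 (without WRRh) when a library was left out, the lone library being assumed to vary like the others. The cause of these changes was not tested. The counts of members by weight class and at least 2-fold apart stayed at 0. Apart from weight class, which is a term of the model, nothing pairs the libraries. No paired analysis was possible because each group has 1 library and no replicate number is shared. The tables give no counts per gene, which limits the precision of every value.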

Other observations

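The tables hold some carriers under protein names, which the rule did not take. E1C5T1_CHICK (ENSGALG00000002519, chromosome 21, 3385628 to 3404551) shares 12 of 20 neighbouring symbols with SLC25A33 in the RefSeq table. The study's own gene lists, chosen on these libraries, give the same carrier name. SLC25A33 is known in mammals as a carrier of pyrimidine nucleotides. For E1C5T1_CHICK the authors' status column reads NOTEST for WRRh against WRRl and OK for the other comparisons. E1C5T1_CHICK had 25.9 and 19.8 FPKM in XHl and XHh, against 8.21 and 3.81 FPKM in WRRl and WRRh, a log2 difference of 1.83 ± 0.19 (SE, adjusted p = 0.0479, limma, 0.0158 to 0.247 over the alternatives). S2536_CHICK, with 11 neighbouring symbols shared with SLC25A36, had 9.38 and 10.1 FPKM in XHl and XHh, against 16.0 and 13.0 FPKM in WRRl and WRRh (log2 difference -0.52, SE 0.16, adjusted p = 0.114, limma). S2546_CHICK, with 12 shared with SLC25A46, a protein of the outer membrane, lay between 10.8 and 12.2 FPKM in the 4 libraries, and the breeds overlapped. These genes were added after the symbols had been searched. SLC25A33 had been seen in the study's lists before the rule for named genes was written. Those lists rest on the same 4 libraries, so the p-value of E1C5T1_CHICK is no independent support.

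Among the clients of the import machinery, UQCR11, a small subunit of complex III, had 1656 and 1738 FPKM in XHl and XHh, against 974 and 888 FPKM in WRRl and WRRh (log2 difference 0.87, SE 0.097, adjusted p = 0.0483, limma, 0.0186 to 0.236 over the 13 alternatives, 6 of which kept the call). MRPL41, a protein of the large mitochondrial ribosomal subunit, had 21.0 and 26.7 FPKM in XHl and XHh, against 45.2 and 59.1 FPKM in WRRl and WRRh (log2 difference -1.10, SE 0.12, adjusted p = 0.0483, limma, 0.0193 to 0.24 over the alternatives, 4 of which kept the call).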
